A study of Mus musculus with 30 samples.

Results

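The genes described here are 44 listed genes of the cell division cycle, among the 29555 gene identifiers of the RNA tables, and all 44 were found by symbol. They are a list of named genes, with no threshold on a measured value, drawn up with earlier results of these data known. There were 16 replication genes, of which 10 license origins or form the replisome and 6 make DNA or its precursors, 8 cyclins, 4 cyclin-dependent kinases, 14 mitosis genes, and E2f1 and Rb1 as regulators of entry into S phase. The label of the set, S and M phase, was kept, although the D cyclins, Cdk4, Cdk6, E2f1 and Rb1 act in G1.

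In a dividing cell, D cyclins with Cdk4 or Cdk6, and E cyclins with Cdk2, inactivate Rb1 and its relatives. This frees the E2F transcription factors, which switch on the genes of DNA replication. Later, A and B cyclins with Cdk1 drive mitosis, and many of the genes used there are controlled through a short promoter element called the CHR, bound by the DREAM and MuvB complexes. Pluripotent cells are known for fast division with a short G1 phase, which lengthens as they differentiate.

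The cells were mouse epiblast stem cells (EpiSCs), pluripotent cells that correspond to the epiblast around gastrulation, and definitive endoderm (DE), the layer that gives rise to gut, liver and pancreas. All EpiSCs were grown per the labels on feeder cells, from which they were lifted with collagenase, in N2B27 medium with Fgf2, ActivinA and the Wnt pathway inhibitor NVP-TNKS656. DE was made from them with the Wnt agonist CHIR99201 and ActivinA over 16 h, then with ActivinA and the BMP inhibitor LDN193189 over 24 h, and CXCR4+ cells were taken with magnetic beads. The labels also state 46 h of differentiation. RNA-seq covered 5 EpiSC and 4 DE samples of the inbred strain B6, 3 EpiSC samples of PWK, an inbred strain of wild origin, 3 EpiSC samples of the cross B6.129 F1 (written B6129F1 below), and 1 EpiSC sample of DBA. ATAC-seq, which reads open chromatin, covered 4 EpiSC and 4 DE samples of B6, 2 EpiSC samples of PWK and 1 of DBA. Replicates are named by the labels' numbers. For 1 library each of PWK and B6129F1 the name in the table matched no numbered sample, so it was placed by strain alone and is called unnumbered. The labels call the replicates BioRep, but nothing in them says that these were separate cell lines. The p-values thus measure the spread between these samples, which may be technical.

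Total counts were between 22829536 and 66563933 in the RNA libraries and between 3751526 and 9571127 in the ATAC libraries. All 10 DE markers were called higher in B6 DE (summed 6522 to 13409 CPM against 161 to 401 CPM in B6 EpiSCs, where CPM are counts scaled to a library of 1000000). Of 8 markers of the pluripotent epiblast, 5 fell (Pou5f1, Sox2, Nanog, Lin28a and Utf1), Fgf5 (log2 change 2.91) and Otx2 (1.83) rose and Dnmt3b was not called. The sum of these 8 was 3160 to 4080 CPM in DE and 3333 to 4888 CPM in EpiSCs. Of 15 fibroblast markers, which stand for feeder cells, 12 were called lower in DE. Their summed level was 158 CPM in B6 EpiSC replicate 1 and between 629 and 3303 CPM in the other 4 B6 EpiSC libraries, against 138 to 383 CPM in the sorted DE. Genes of chromosome 8, which carries Mcm5, Cdt1 and Gins2, lay 0.47 (median log2) above the other DE libraries in DE replicate 51, against -0.15 to -0.11 in the other 3. DE replicate 2 had 9 genes at 0 counts that held at least 200 counts in each other DE library, and Gtse1 was 1 of them.

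Promoters were searched for the motifs of the factors named above. RefSeq promoters (GRCm38.p6, 250 bases before to 50 after an annotated start) were at hand for 35 of the 44 genes. They were searched on both strands for the E2F motifs TTTCCCGC, TTTGGCGC, TTTCGCGC and TTTGCCGC, for the CHR motifs TTTGAA and TTCGAA, and for CCAAT, the box bound by NF-Y. TTCGAA reads the same on both strands, and matches may overlap. An E2F motif was in 6 of 14 replication genes, all of them among the licensing genes (Mcm3, Mcm5, Mcm6, Mcm7, Cdc6 and Cdt1, 6 of 8), in Cdk1 and Cdk2, and in 0 of 12 mitosis genes, against 2.6% of the 27025 genes in the table. A CHR motif was in 9 of 12 mitosis genes and 4 of 14 replication genes, against 21.7% of all genes. CCAAT was in 11 of 12 mitosis genes and 10 of 14 replication genes, against 41.1% of all genes. These are matches of letters, not sites shown to be bound.

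The 160 bases just before the start are printed for 8 genes, to show both motifs beside genes that rose, fell or did not pass the test in DE. E2F motifs are in capitals in Mcm5 at chr8:75109349-75109508 (plus strand), Mcm6 at chr1:128359706-128359865 (minus strand) and Cdc6 at chr11:98907991-98908150 (plus strand). Cdk1 at chr10:69352913-69353072 (minus strand) carries 1 E2F and 2 CHR motifs, all in capitals. CHR motifs are in capitals in Cdc20 at chr4:118437344-118437503 (minus strand), Kif11 at chr19:37376222-37376381 (plus strand) and Top2a at chr11:99024190-99024349 (minus strand). Cdk6 at chr5:3343733-3343892 (plus strand), the gene with the largest change, has neither in this stretch. The stretches of Cdc6 and Cdk6 lie inside the annotated genes (chr11:98907709-98923942 and chr5:3341004-3531008). The bases before the outer ends of these genes were not searched. Each printed stretch is written 5′ to 3′ on the strand of the gene.
Mcm5: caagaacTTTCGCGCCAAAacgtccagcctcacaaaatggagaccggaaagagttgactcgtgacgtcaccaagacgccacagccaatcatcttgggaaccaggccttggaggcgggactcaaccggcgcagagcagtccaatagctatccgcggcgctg
Mcm6: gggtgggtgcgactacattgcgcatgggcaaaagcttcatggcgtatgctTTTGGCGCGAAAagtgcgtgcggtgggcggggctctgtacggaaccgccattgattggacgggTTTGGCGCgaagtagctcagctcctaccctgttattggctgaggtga
Cdc6: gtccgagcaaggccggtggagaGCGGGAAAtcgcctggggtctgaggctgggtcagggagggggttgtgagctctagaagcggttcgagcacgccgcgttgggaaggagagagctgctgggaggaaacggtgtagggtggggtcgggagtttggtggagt
Cdk1: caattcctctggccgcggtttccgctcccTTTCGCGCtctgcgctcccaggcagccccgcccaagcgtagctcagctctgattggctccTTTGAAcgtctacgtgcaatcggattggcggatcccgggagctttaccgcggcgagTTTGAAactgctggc
Cdc20: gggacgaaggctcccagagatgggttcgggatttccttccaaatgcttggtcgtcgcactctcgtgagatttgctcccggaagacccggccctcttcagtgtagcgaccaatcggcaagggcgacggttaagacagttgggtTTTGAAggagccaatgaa
Kif11: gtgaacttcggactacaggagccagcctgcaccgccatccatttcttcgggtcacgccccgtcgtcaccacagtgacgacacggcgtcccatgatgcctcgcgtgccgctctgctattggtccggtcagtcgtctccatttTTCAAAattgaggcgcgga
Top2a: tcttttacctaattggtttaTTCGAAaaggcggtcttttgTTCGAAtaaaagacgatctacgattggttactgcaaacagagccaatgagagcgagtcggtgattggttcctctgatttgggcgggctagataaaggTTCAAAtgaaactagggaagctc
Cdk6: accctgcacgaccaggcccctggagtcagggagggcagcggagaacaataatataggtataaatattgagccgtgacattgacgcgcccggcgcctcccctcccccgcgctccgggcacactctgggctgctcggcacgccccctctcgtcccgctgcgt

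**Figure D1:**
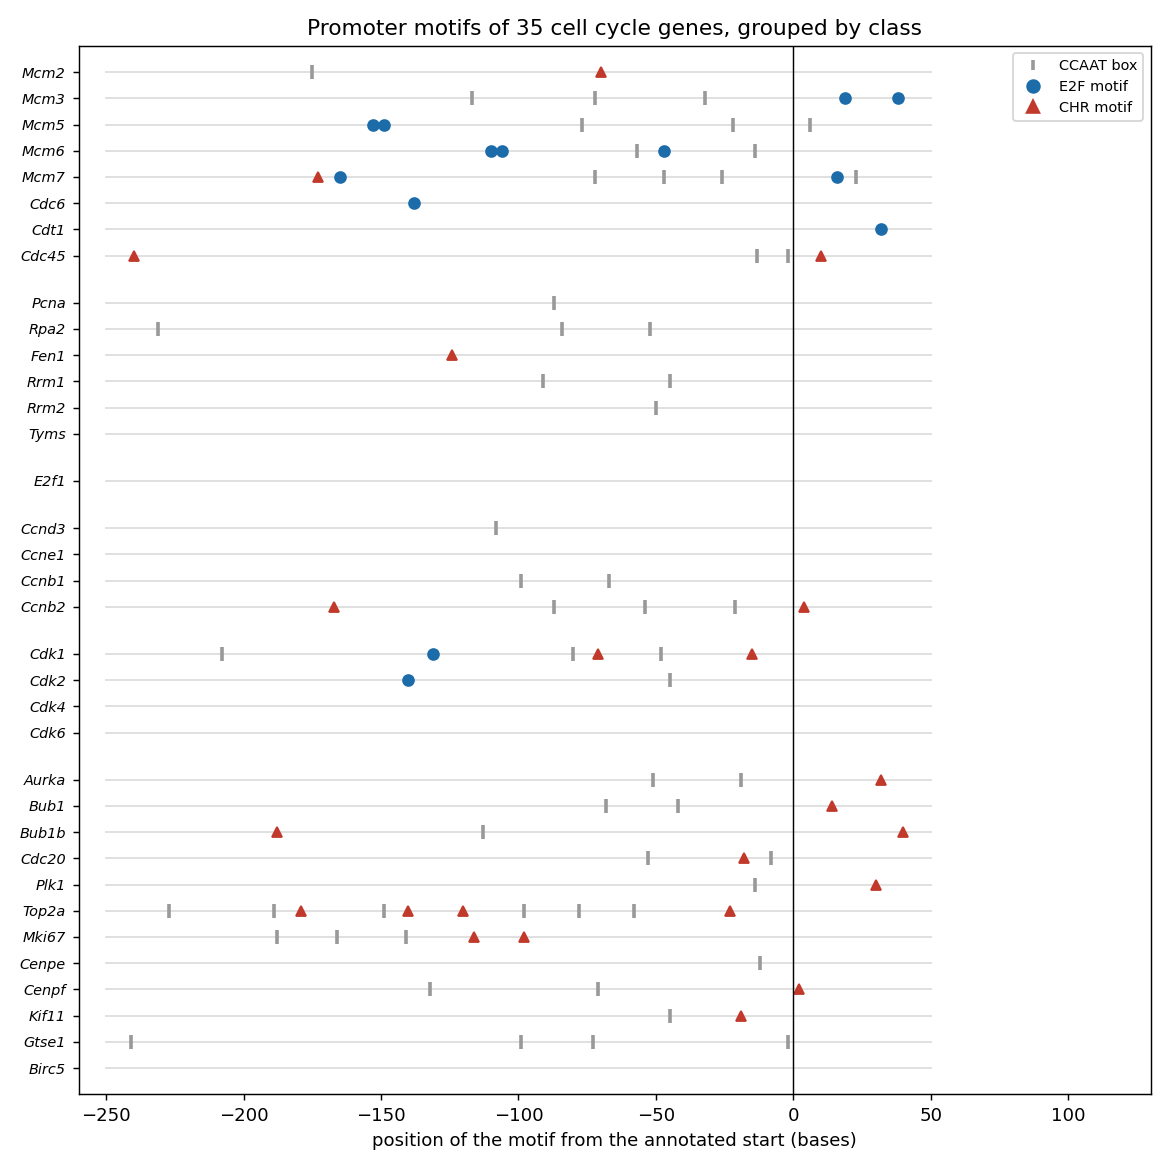
Positions of E2F (circles), CHR (triangles) and CCAAT (bars) motifs along the promoters of 35 genes, in bases from the annotated start (0), grouped by class from licensing genes at the top to mitosis genes at the bottom; for Ccnd3, Fen1, Gtse1 and Mcm7 the motifs of all annotated starts are drawn on 1 line. Circles appear in 6 licensing genes, Cdk1 and Cdk2, and triangles in 9 of 12 mitosis genes.

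Setting B6 DE against B6 EpiSCs asks how the division programme differs between the pluripotent cells and the endoderm made from them. Replication and mitosis genes had opposite medians: the 16 replication genes had a median log2 change of 0.37 (8 called higher, 2 lower), and the 14 mitosis genes of -0.57 (4 higher, 6 lower). The replication genes were themselves uneven. The 10 that license origins or form the replisome had a median of 0.03, and the 6 that make DNA or its precursors of 0.66. The 8 cyclins had a median of -0.16 (1 higher, 2 lower) and the 4 kinases of 0.56 (2 higher, 1 lower). A gene was called where its Benjamini-Hochberg adjusted p, from edgeR's quasi-likelihood test over all 14085 genes, was under 0.05. In all, 28 of 44 genes were called, 16 higher and 12 lower, and the groups did not overlap for 27. Among all genes, 62% were called, 31.5% higher and 30.6% lower, and for 55.6% the groups did not overlap. A called change of at least 2-fold was seen in 10 of the 44 genes (2 higher, 8 lower), against 45.3% of all genes. The share of the 44 genes called at any size was near that of all genes, the share called at 2-fold or more was lower, and their median of 0.06 was near that of all genes, -0.01. The difference between the classes was not tested as such, since their members were chosen with results of these data known.

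**Figure D2:**
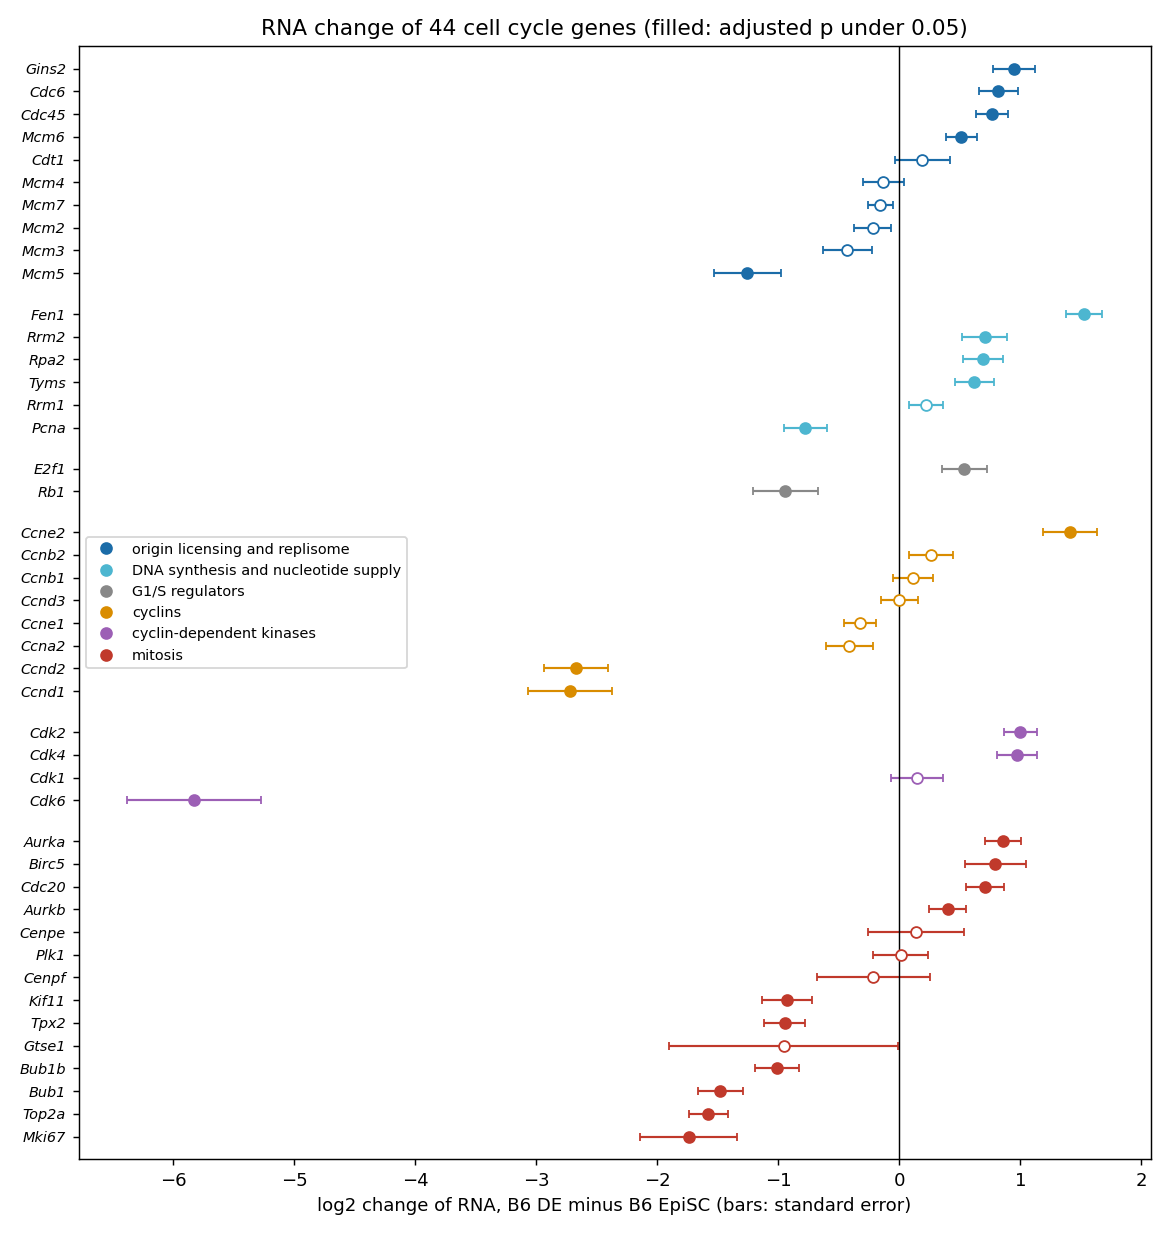
log2 change of RNA from B6 EpiSC (5 libraries) to B6 DE (4 libraries) for the 44 genes, ordered within 6 classes, with the standard error of the fit; filled points have an adjusted p under 0.05. The 10 called replication genes lie mostly right of 0 and 6 of the 10 called mitosis genes left of it, while Cdk6 stands far to the left at -5.83.

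Among the genes that license origins and open the helix, 4 rose, 1 fell and 5 did not pass the test. Mcm2 to Mcm7 encode the helicase ring of the origin, and its subunits did not move together. Mcm6 had 419, 515, 598 and 488 CPM in DE replicates 2, 4, 44 and 51, against 336, 385, 336, 353 and 359 CPM in EpiSC replicates 1, 2, 4, 44 and 51. All DE libraries lay above all EpiSC libraries, and Mcm6 rose by 0.51 ± 0.13 (log2 change ± SE, edgeR adjusted p = 0.00542). Mcm5 had 24.1, 17.6, 23.8 and 24.6 CPM in DE against 25.0, 70.4, 56.3, 50.3 and 66.8 CPM in EpiSCs. EpiSC replicate 1 was close to the DE libraries and the other 4 were far above, and Mcm5 fell by 1.25 on the log2 scale (SE 0.28, adjusted p = 0.00268 by edgeR). Both genes carry E2F motifs in the stretches printed above. For Mcm2, Mcm3, Mcm4 and Mcm7 the log2 changes were -0.22, -0.43, -0.13 and -0.16, with none called. Mcm7 was nonetheless lower in each DE library (431 to 476 CPM) than in each EpiSC library (487 to 524 CPM), and it overlaps Ap4m1, so that without strand in the counting its reads could be shared.

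Cdc6 and Cdt1 load the ring onto origins. Cdc6 had 83.9, 120.7, 102.5 and 119.6 CPM in DE and 57.8, 70.0, 49.3, 54.2 and 70.9 CPM in EpiSCs, with no overlap, and rose by 0.82 ± 0.16 (edgeR adjusted p = 0.00134). Cdt1 ranged from 57.7 to 87.3 CPM in DE and from 35.2 to 81.1 CPM in EpiSCs, and its log2 change of 0.19 ± 0.23 was within the spread (adjusted p = 0.48). Gins2 and Cdc45, partners of the ring in the active helicase, both rose. Gins2 had 123.6, 86.2, 74.4 and 115.2 CPM in DE against 42.7 to 58.0 CPM in EpiSCs (log2 change 0.95 ± 0.17, edgeR adjusted p = 0.000794), and Cdc45 had 65.4, 70.5, 70.4 and 88.9 CPM against 39.1 to 47.5 CPM (0.77 ± 0.13, adjusted p = 0.000576). Gins2 overlaps Gse1 and Cdc45 overlaps Ufd1 in the annotation. Leaving out DE replicate 51, in which chromosome 8 stood high, kept Gins2 and Mcm5 called in the same direction.

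Of the genes that copy the DNA or supply nucleotides, 4 rose and 1 fell. Fen1, the nuclease that trims Okazaki fragments, had the largest rise of all 44 genes. It stood at 308.8, 224.6, 238.2 and 274.6 CPM in DE and at 80.1, 104.4, 81.6, 82.7 and 105.8 CPM in EpiSCs. The lowest DE library was above the highest EpiSC library, and the log2 change was 1.52 ± 0.15 (edgeR adjusted p = 1.47e-05). Fen1 lies on GRCm38 at chr19:10199132-10204393 and overlaps Tmem258 in the annotation. Rrm2, the regulated subunit of ribonucleotide reductase, rose by 0.71 ± 0.19 (adjusted p = 0.00724), from 366 to 403 CPM in EpiSCs to 410, 573, 649 and 859 CPM in DE. Its partner Rrm1 was not called (0.22 ± 0.14, adjusted p = 0.188). Rpa2, which coats single-stranded DNA, rose by 0.69 ± 0.17, and Tyms, which makes thymidylate, by 0.62 ± 0.16 (edgeR adjusted p = 0.00453 and 0.00685). Rpa2 ran from 82.6 to 144 CPM in DE and from 61.2 to 78.8 CPM in EpiSCs, and Tyms from 82.9 to 130.2 CPM and from 57.4 to 77.7 CPM, so that neither gene's groups overlapped. Pcna, the sliding clamp of the polymerases, went the other way: it had 285, 193, 167 and 245 CPM in DE against 368, 385, 362, 332 and 457 CPM in EpiSCs, and fell by 0.78 on the log2 scale (SE 0.18, adjusted p = 0.00315). Pcna-ps1 and Pcna-ps2 are annotated as pseudogenes of Pcna, so that reads could be split between copies.

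The G1 regulators held the largest falls. Cdk6, a kinase of the D cyclins encoded on GRCm38 at chr5:3341004-3531008, had 5.29, 2.57, 0.63 and 2.84 CPM in DE replicates 2, 4, 44 and 51, against 113, 227, 113, 185 and 157 CPM in EpiSCs. Its level was thus near 0 in every DE library, and its log2 change was -5.83 ± 0.55 (adjusted p = 1.17e-05 by edgeR). In bulk samples, fewer cells that express a gene and less RNA per cell cannot be told apart. Cdk4, the other kinase of the D cyclins, rose by 0.97 ± 0.17 (adjusted p = 0.000534). It had 1617, 954, 979 and 1082 CPM in DE and 544, 599, 586, 578 and 637 CPM in EpiSCs, with no overlap, and it overlaps Tspan31 in the annotation.

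The D cyclins split as well. Ccnd1 (chr7:144929931-144939831) had 44.5, 47.5, 20.2 and 73.2 CPM in DE against 221, 348, 248, 304 and 406 CPM in EpiSCs, and fell by 2.72 (SE 0.35, edgeR adjusted p = 8.27e-05). Ccnd2 had 36.3, 31.4, 29.3 and 41.8 CPM against 131, 224, 171, 280.1 and 299 CPM, and fell by 2.67 (SE 0.26, adjusted p = 1.49e-05). Ccnd3 ranged from 79.1 to 99.4 CPM in DE and from 67.3 to 107 CPM in EpiSCs, with a log2 change of 0.00 ± 0.15. In the annotation Ccnd1 overlaps LTO1, and Ccnd3 overlaps Bysl and has the pseudogene Ccnd3-ps. The 3 falling genes were lowest or near lowest among EpiSCs in replicate 1, where the fibroblast markers summed to 158 CPM, a level within the range of the DE libraries. In that library Ccnd1 (221 CPM), Ccnd2 (131 CPM) and Cdk6 (113 CPM) lay above every DE library. The part of feeder cells in the 3 falls was not tested further.

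**Figure D3:**
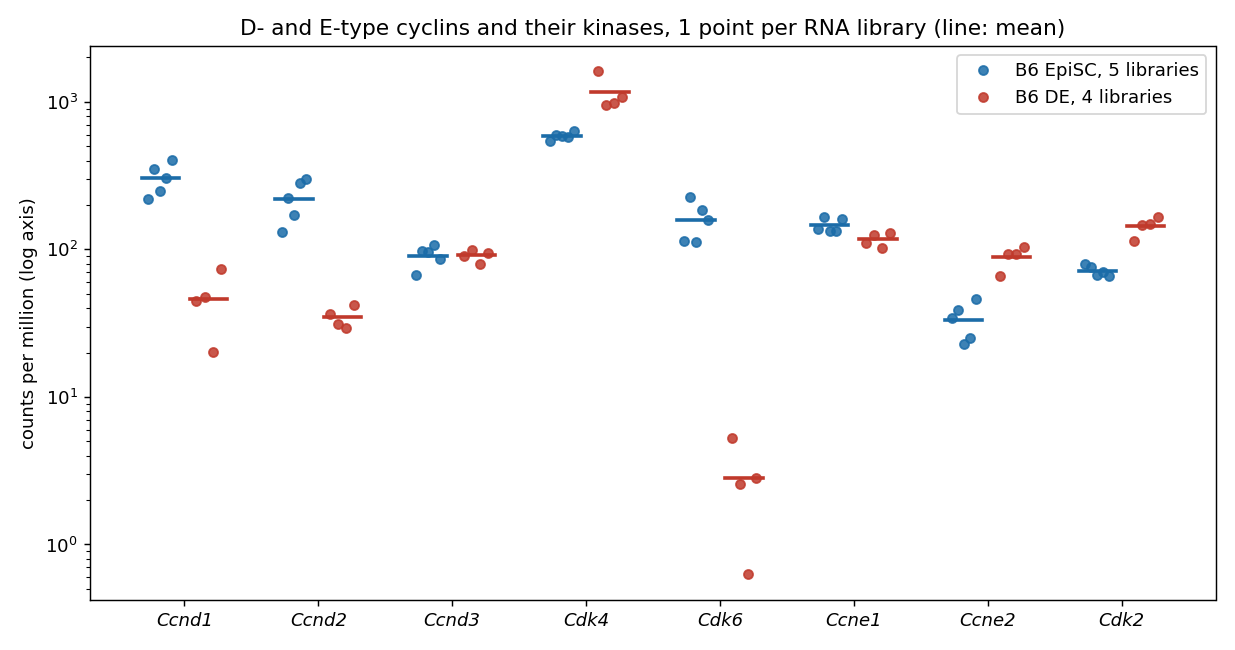
CPM on a log axis of D and E cyclins and their kinases in 5 B6 EpiSC (blue) and 4 B6 DE (red) RNA libraries, 1 point per library with the group mean as a line. Ccnd1, Ccnd2 and Cdk6 are lower in each DE library than in each EpiSC library, Cdk4, Ccne2 and Cdk2 are higher, and the groups overlap for Ccnd3.

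The E cyclins, which act with Cdk2 at the start of S phase, differed from each other. Ccne2 had 66.2, 92.6, 93.4 and 103.9 CPM in DE and 34.3, 38.8, 23.0, 25.2 and 46.0 CPM in EpiSCs, and rose by 1.41 ± 0.22 (edgeR adjusted p = 0.000339). Ccne1 was lower in each DE library (102 to 129 CPM) than in each EpiSC library (133 to 166 CPM), and its log2 change of -0.32 ± 0.13 just missed the threshold (adjusted p = 0.0523). Under 4 of 16 alternatives Ccne1 was called lower. Cdk2 rose by 1.00 ± 0.14 (adjusted p = 0.00012), from 65.7 to 79.9 CPM in EpiSCs to 114 to 165 CPM in DE. Ccne2 overlaps Ints8 and Cdk2 overlaps Pmel in the annotation.

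Neither the cyclins of G2 and mitosis nor their kinase passed the test. The log2 changes were -0.41 ± 0.19 for Ccna2 (adjusted p = 0.0886), 0.11 ± 0.16 for Ccnb1, 0.27 ± 0.18 for Ccnb2 and 0.15 ± 0.21 for Cdk1. DE replicate 51 had the highest Ccna2 (317 CPM, against 158 to 208 in the other DE libraries) and Ccnb1 (569 CPM, against 344 to 386), and without it Ccna2 was called lower. Of the 2 remaining G1/S regulators, E2f1 rose by 0.54 ± 0.19 (edgeR adjusted p = 0.0277), with 38.6, 47.1, 44.2 and 33.0 CPM in DE against 20.1, 29.8, 26.4, 28.6 and 35.4 CPM in EpiSCs, an overlap between groups. It was called in 8 of 16 alternatives. Rb1, the brake on E2F, fell by 0.94 (SE 0.27, adjusted p = 0.011), with 7.94 to 13.5 CPM in DE and 14.4 to 30.6 CPM in EpiSCs. In the annotation Ccna2 overlaps Exosc9, E2f1 overlaps Necab3 and Rb1 overlaps Lpar6. Ccnb1-ps and Ccnb2-ps are annotated as pseudogenes of Ccnb1 and Ccnb2.

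The mitosis genes were split by gene and not moved as a block. The 6 that fell were Mki67, a protein of the chromosome surface used as a marker of dividing cells, Top2a, the topoisomerase that untangles sister chromatids, the spindle checkpoint kinases Bub1 and Bub1b, the spindle motor Kif11 and its spindle partner Tpx2. Top2a (chr11:98992947-99024199) had 266, 352, 293 and 407 CPM in DE against 1173, 977, 909, 951 and 901 CPM in EpiSCs, and fell by 1.58 (SE 0.16, edgeR adjusted p = 1.91e-05). Bub1 had 48.5, 69.2, 82.1 and 94.4 CPM in DE against 189 to 225 CPM in EpiSCs, and fell by 1.48 (SE 0.19, adjusted p = 7.26e-05). For both genes every DE library was below every EpiSC library. Bub1b fell by 1.01, Tpx2 by 0.95 and Kif11 by 0.93, each without overlap between groups (adjusted p = 0.000777, 0.000767 and 0.00282). Bub1b ran from 67.4 to 122 CPM in DE and from 169 to 224 CPM in EpiSCs, Tpx2 from 118 to 198 CPM and from 252 to 307 CPM, and Kif11 from 87.7 to 174 CPM and from 223 to 285 CPM. Within DE, replicate 2 was lowest for all 3 and replicate 51 highest. Mki67 fell by 1.74 (SE 0.40, adjusted p = 0.00336), with 79.9, 116.8, 83.6 and 153.8 CPM in DE, but its EpiSC level itself ran from 182 CPM in replicate 4 to 697.8 CPM in replicate 1.

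The 4 mitosis genes that rose were Aurka, Cdc20, Birc5 and Aurkb. Aurka, the kinase of the spindle poles, had 280.3, 244, 192 and 321 CPM in DE against 137 to 151 CPM in EpiSCs (log2 change 0.86 ± 0.15, edgeR adjusted p = 0.000609). Cdc20, which activates the anaphase-promoting complex, had 432, 329, 269.9 and 437 CPM against 209 to 238 CPM (0.71 ± 0.16, adjusted p = 0.00268). Both were above the EpiSC range in each DE library, and they overlap Cstf1 and Elovl1 in the annotation. Birc5 (survivin) and Aurkb belong to 1 complex at the centromere and their groups overlapped. Birc5 rose by 0.79 ± 0.25 (adjusted p = 0.0181) and was no longer called without DE replicate 51. Aurkb rose by 0.40 ± 0.15 (adjusted p = 0.0439) and was called in 2 of 16 alternatives. Plk1 (0.01 ± 0.23), the kinetochore genes Cenpe (0.14 ± 0.40) and Cenpf (-0.21 ± 0.47), and Gtse1 did not pass the test. Gtse1 stood at 60.5, 49.7 and 101.5 CPM in DE replicates 4, 44 and 51 and at 85.2 to 134 CPM in EpiSCs, while DE replicate 2 held 0 counts. A CHR motif was in 5 of the 5 falling mitosis genes with a promoter in the table and in 2 of the 3 rising ones, Aurka and Cdc20. It was also in 2 of the 4 that did not pass the test, Plk1 and Cenpf.

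Within each library, the sums of the replication and the mitosis genes were set side by side. The CPM of the 16 replication genes summed to 0.779, 1.12, 1.10, 1.04 and 1.28 times the sum of the 14 mitosis genes in EpiSC replicates 1, 2, 4, 44 and 51. In DE replicates 2, 4, 44 and 51 this ratio was 1.66, 1.57, 2.30 and 1.43, above every EpiSC library. The mitosis genes had the higher sum in EpiSC replicate 1 alone. Such sums weigh genes by their level. Top2a had a mean of 982 CPM in EpiSCs and 329 CPM in DE, and Mki67 of 362 CPM and 109 CPM. In EpiSC replicate 51 the replication and mitosis sums were 3777 and 2960 CPM, with 901 CPM of Top2a and 200 CPM of Mki67. In DE replicate 51 they were 4329 and 3017 CPM, with 407 CPM of Top2a and 154 CPM of Mki67. Without Top2a and Mki67, EpiSC replicate 51 had a higher ratio than DE replicate 51, so the groups no longer stayed apart. Against the EpiSC mean, the median mitosis gene lay at -0.98, -0.41, -0.90 and 0.10 (log2) in DE replicates 2, 4, 44 and 51. The value was positive in replicate 51 alone. The median replication gene lay at 0.12, 0.23, 0.26 and 0.50. Total counts were 59995667 and 66563933 in DE replicates 4 and 51, where the mitosis median was higher, and 22829536 and 25410448 in replicates 2 and 44. The part of depth in these levels was not tested. Without DE replicate 51 the median log2 change of the mitosis genes was -0.75, and without DE replicate 2 it was -0.35.

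The change also moved with the length of the gene on the chromosome. Across the 13674 tested genes with a span in RefSeq, Spearman's rho of log2 change and span was -0.24, and across the 44 genes it was -0.48. These are descriptions across genes, which are not independent replicates. In 4 equal bins of span, from short to long, the median log2 change of all genes was 0.51, 0.21, -0.13 and -0.71. The 4 mitosis genes that rose had a median span of 6274 bp and the 6 that fell of 37527 bp. Relative to the median of all genes in the same bin, the median was 0.27 for replication genes, -0.47 for cyclins and -0.50 for mitosis genes. The part of gene span in these changes was not tested.

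Larger lists of the same pathways did not show the higher replication genes. Of 44 further replication genes, 10 rose and 14 fell, with a median log2 change of -0.13. Rfc2 (1.80), of the clamp loader, and Slbp (1.42), which binds histone mRNA, rose most, and Pole (-2.42), the leading-strand polymerase, and Clspn (-2.28), a mediator of the checkpoint, fell most. Of 56 further mitosis genes, 10 rose and 19 fell, with a median of -0.25. Spc25 (1.84) of the kinetochore and Fzr1 (1.15), an activator of the anaphase-promoting complex, rose most, and the kinesin Kif14 (-3.02) and Espl1 (-2.11), which is separase, fell most. Among 11 E2F, DP and pocket protein genes, 2 rose (E2f5, 1.56, and E2f6, 1.07) and 5 fell, with E2f8 (-1.72) and Tfdp1 (-1.54) furthest. Of 7 genes of DREAM and MuvB, 3 rose, led by Lin37 (1.72) and Lin52 (0.57), and 2 fell, Mybl1 (-4.42) and Foxm1 (-1.36). Of 6 tested CDK inhibitors, 0 rose and 2 fell, Cdkn2a (-4.71) and Cdkn1b (-1.72). Of 14 genes of CDK activation and the checkpoint, 3 rose, led by Cdk7 (0.97) and Pkmyt1 (0.79), and 5 fell, with Atm (-2.36) and Atr (-1.53) furthest.

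Among EpiSCs, the comparison of strains asks whether the division programme depends on genetic background. The 3 comparisons came from 1 fit and share libraries, so their values are given side by side and their agreement is not counted as support. The CPM values of this fit differ slightly from those above because the libraries were scaled together. The B6 EpiSC libraries differed among themselves. The highest B6 library had at most 2 times the level of the lowest for 35 of the 44 genes (median ratio 1.32), but Cenpf differed by 5.62 times. Mki67, Cenpe and Cenpf went up and down together, as the plot of mitosis genes by EpiSC library shows. Cenpf had 352, 124, 62.6, 133 and 66.5 CPM in B6 replicates 1, 2, 4, 44 and 51, 318, 300.5 and 300.6 CPM in B6129F1 replicates 4 and 9 and the unnumbered library, and 57.1, 81.8 and 139 CPM in PWK BioRep698, BioRep695 and the unnumbered library. Mki67 had 728, 362, 186, 398 and 208 CPM in B6, 786, 650.3 and 733 CPM in B6129F1, and 168, 202 and 282 CPM in PWK. B6 replicate 1 thus resembled the B6129F1 libraries in these genes and B6 replicates 4 and 51 resembled PWK.

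**Figure D4:**
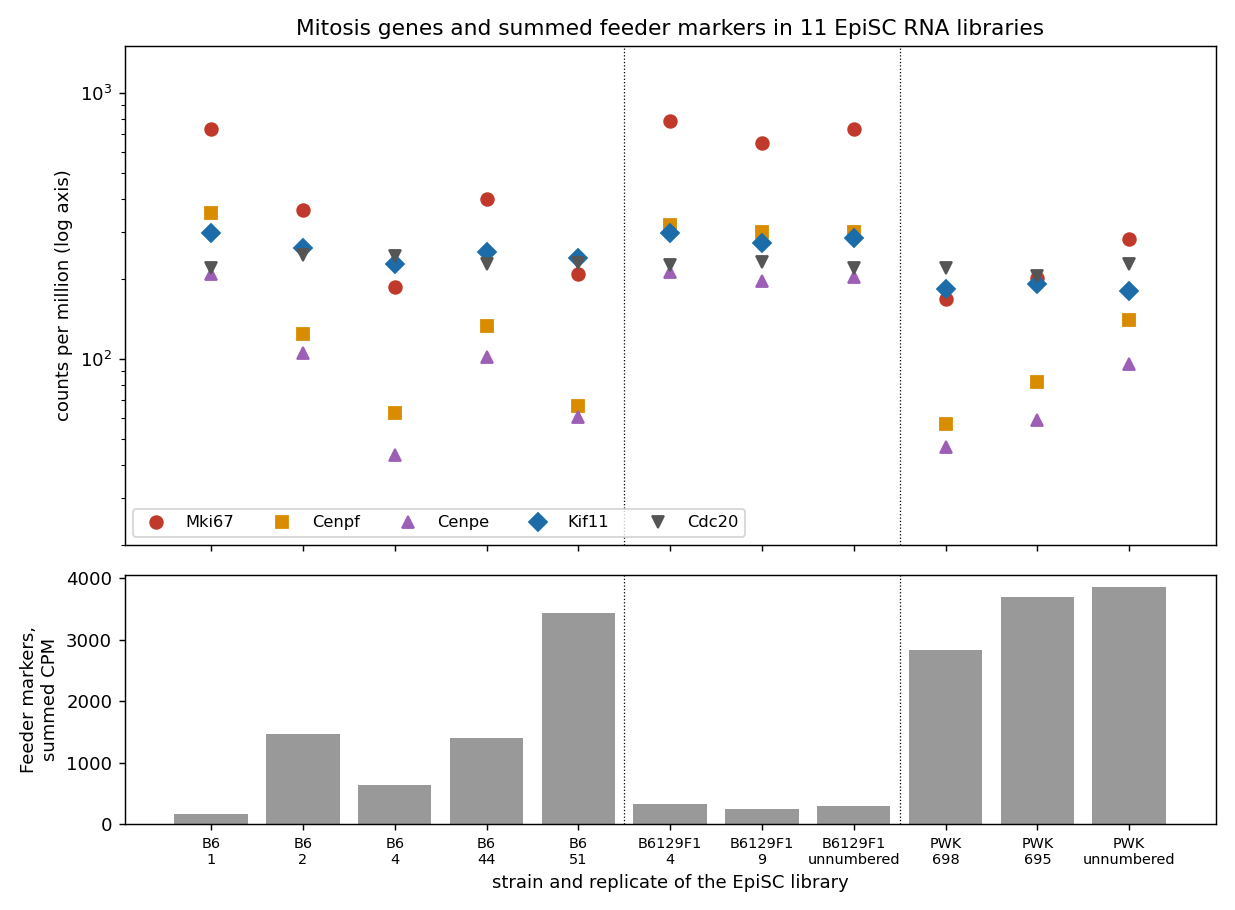
Upper panel, CPM on a log axis of 5 mitosis genes in 11 EpiSC RNA libraries of B6, B6129F1 and PWK; lower panel, summed CPM of 15 fibroblast markers in the same libraries. Mki67, Cenpf and Cenpe are high in B6 replicate 1 and the 3 B6129F1 libraries, where the bars are between 165 and 338, while Kif11 and Cdc20 vary less.

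The fibroblast markers summed to 165 CPM in B6 replicate 1 and 246 to 338 CPM in B6129F1, and to 2842 to 3862 CPM in PWK. B6 replicate 4 had low Mki67 at a marker sum of 641 CPM, and B6 replicate 2 had the intermediate Mki67 level of 362 CPM at a sum of 1468 CPM. The part of feeder cells in these levels was not tested.

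In PWK against B6 EpiSCs, 16 of the 44 genes were called, 2 higher and 14 lower, where 26.5% of all 14822 genes were called, 12.0% higher and 14.5% lower. The groups did not overlap for 18 of the 44, against 32.1% of all genes, and the median log2 change was -0.19 against -0.01. The genes that were lower came from every class but the G1/S regulators: 5 of 16 replication genes, 4 of 8 cyclins, 2 of 4 kinases and 3 of 14 mitosis genes. Cdk6 was lowest against B6, with 54.0, 57.8 and 50.6 CPM in PWK against 118, 236.5, 115, 192 and 164 CPM in B6 (log2 change -1.61 ± 0.22, edgeR adjusted p = 0.000477). Rrm2 had 239.7, 229 and 222 CPM in PWK against 381 to 419.5 CPM in B6 (-0.78 ± 0.06, adjusted p = 3.81e-06). Ccnb1 had 259, 239 and 239 CPM against 371 to 445 CPM (-0.69 ± 0.07, adjusted p = 5.02e-05). For these 3 genes each PWK library was below each B6 library. Gins2 (-0.56), Pcna (-0.49), Kif11 (-0.47), Ccne1 (-0.43), Cdk1 (-0.43) and Aurka (-0.36) were also lower, with adjusted p between 0.00144 and 0.00893, and so were Mcm2, Mcm7, Ccnb2, Ccna2 and Tpx2, with changes between -0.40 and -0.17. Cdc45 (0.38 ± 0.08, adjusted p = 0.00534) and Gtse1 (0.40 ± 0.13, adjusted p = 0.042, groups overlapping) were higher. The authors' processing notes name mm10, the B6 reference. Its part in the lower counts of PWK was not tested.

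Ccnd1 and Ccnd2 were not called in PWK (log2 change 0.21 ± 0.18 and -0.07 ± 0.27). Of 15 fibroblast markers, 1 was called higher in PWK than in B6 (median log2 change 1.24), and B6 replicate 51, with a marker sum of 3437 CPM, had 164 CPM of Cdk6, above each PWK library. The part of feeder cells in the lower Cdk6 of PWK was not tested. Of the 16 calls, 9 were made in each of the 14 alternatives, Cdk6, Rrm2, Ccnb1, Gins2, Pcna, Kif11, Ccne1, Aurka and Cdc45. The calls of Mcm2, Mcm7, Ccna2, Ccnb2, Cdk1, Tpx2 and Gtse1 were lost when 1 or more of the libraries was left out. The number called lower was 8 without PWK BioRep695, 9 without PWK BioRep698 and 9 without the unnumbered PWK library. In the further lists, 11 of 44 replication genes and 18 of 56 mitosis genes were lower in PWK and 0 and 1 higher. Among all genes, 14.5% were lower and 12.0% higher. Of 7 CDK inhibitors, 1 was higher, Cdkn1a (p21, 0.93 ± 0.20, edgeR adjusted p = 0.00571), and 1 was lower.

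In B6129F1 against B6 EpiSCs, 0 of the 44 genes were called by edgeR, where 2.84% of all genes were, 1.34% higher and 1.50% lower. DESeq2 called 2, and 8 had an unadjusted p under 0.05 in edgeR. The groups did not overlap for 3 genes, Bub1, Cdk2 and Gtse1, against 14.5% of all genes. The lowest adjusted p was 0.0534, for Bub1 (log2 change 0.31 ± 0.08). Mki67, Cenpe and Cenpf had the largest differences, 0.94 ± 0.39, 0.97 ± 0.43 and 1.05 ± 0.52, and none passed the test. Without B6 replicate 1, 7 genes were called, 6 of them higher (Cdk2, Bub1, Mki67, Cenpe, Cenpf and Kif11), and Gtse1 lower. Calls rose among all genes as well: 1001 of 14748 were higher and 951 lower, against 199 and 222 of 14822 with every library. Cdkn1a was lower in B6129F1 (-1.32 ± 0.21, edgeR adjusted p = 0.0241).

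In PWK against B6129F1, 21 of the 44 genes were called, 3 higher and 18 lower, where 40.0% of all genes were called, 20.7% higher and 19.4% lower. The groups did not overlap for 26 of the 44, against 62.5% of all genes. Cdk6 (-2.16 ± 0.24), Mki67 (-1.73 ± 0.45), Cenpf (-1.72 ± 0.61) and Cenpe (-1.60 ± 0.50) were lowest, and Gtse1 (0.88 ± 0.15), Ccnd1 (0.67 ± 0.21) and Cdc45 (0.31 ± 0.09) were higher. Cdk6 had 249.5, 245 and 231 CPM in the B6129F1 libraries. Its group means were 242 CPM in B6129F1, 165 CPM in B6 and 54.1 CPM in PWK. B6129F1 overlapped the highest B6 library of 236.5 CPM, and Cdk6 was not called between them (0.55 ± 0.20, edgeR adjusted p = 0.136). The calls of Cenpe and Cenpf were lost when PWK BioRep698, PWK BioRep695 or any of the 3 B6129F1 libraries was left out, and the number called lower was 11 to 14 with 1 library left out. All 15 fibroblast markers were higher in PWK than in B6129F1, and their part in these differences was not tested, nor was that of the B6 reference.

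The DBA library had no replicate and is described only. Of the 44 genes, 13 lay outside the range of the 5 B6 EpiSC libraries, 9 above and 4 below (29.5%, against 41.0% of 12727 genes), and 0 differed from the B6 mean by more than 1 on the log2 scale, against 8.12% of those genes. Of those outside the range, Cdk6 stood furthest from the B6 mean on that scale, with 265 CPM against 116 to 234 CPM (log2 ratio 0.70). Cenpf, at 248 CPM, was further from the mean (0.75) but inside the wide B6 range.

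At the starts of the 44 genes, chromatin opening showed smaller log2 changes between DE and EpiSCs than the RNA did. For each gene the strongest peak within 1000 bp of its RefSeq start was taken (35 genes), or within 2000 bp of either gene end where the table gave no start (9 genes). Of the 44 peaks, 9 were called, 2 higher and 7 lower, where 57.6% of all 113870 peaks and 32.3% of the strongest start peaks of any RefSeq gene were called. The groups did not overlap for 6 of the 44, against 53.8% of all peaks and 30.3% of the start peaks. The log2 changes lay between -0.64 and 0.68, with a median size of 0.25, against 0.34 for the start peaks of all genes. With scaling by total counts, which moved the median of all peaks from -0.01 to -0.22, 0 peaks were called higher and 16 lower.

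The 7 lower peaks were those of Bub1b (-0.64), Ccnd2 (-0.59), Aurka (-0.56), Rrm1 (-0.39), Ccna2 (-0.38), Cdc20 (-0.32) and Cenpf (-0.29). The 2 higher peaks were those of Ccne1 (0.68) and Gins2 (0.48). The Ccnd2 peak (chr6:127152434-127152776) had 15.6, 19.3, 17.2 and 15.6 CPM in DE against 21.4, 26.5, 23.5 and 30.2 CPM in EpiSC replicates 1, 4, 44 and 51 (-0.59 ± 0.18, edgeR adjusted p = 0.00763). The groups did not overlap, and the RNA of Ccnd2 fell as well. The Aurka peak (chr2:172370460-172370712) had 21.2, 25.7, 23.8 and 20.8 CPM in DE against 32.6, 27.7, 35.5 and 39.8 CPM (-0.56 ± 0.16, adjusted p = 0.00513), and the Cdc20 peak (chr4:118437249-118437662) was lower by 0.32 (adjusted p = 0.0349), while the RNA of both genes rose. The Ccne1 peak (chr7:38107391-38107765) had 24.7, 27.5, 17.7 and 19.0 CPM in DE against 9.76, 15.7, 13.8 and 16.0 CPM (0.68 ± 0.21, adjusted p = 0.00851), while the RNA of Ccne1 was not called. The Gins2 peak had 134 CPM in DE replicate 51 and 75.0 to 88.7 CPM in the other DE libraries, and its call was lost in 9 of 16 alternatives, among them without that replicate. Among DE libraries, the chromosome 8 peaks of Cdt1 (49.6 CPM, others 19.6 to 26.3) and Mcm5 (56.8 CPM, others 34.6 to 40.0) were also highest there. The part of chromosome 8 in the Gins2 peak was not tested. The peaks of Ccnd2, Aurka and Cdc20 were called under each of the 16 alternatives, and the other 6 were not.

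The strongest Cdk6 peak in the window (chr5:3344445-3344614) was centred 636.5 bp after the start, which lies inside the annotated gene. A weaker peak lay nearer to the start. The strongest peak had 12.3, 14.5, 14.5 and 15.0 CPM in DE and 12.2, 15.1, 19.6 and 15.3 CPM in EpiSCs. Its log2 change of -0.14 ± 0.21 (adjusted p = 0.596) stood beside one of -5.83 in RNA. The peak of Ccnd1 changed by -0.28 ± 0.17 and that of Mki67 by -0.08 ± 0.17, neither called. The Ccnd1 peak was the strongest near the gene ends, and another peak lay nearer to an end. Of the 16 genes whose RNA rose, 1 had a higher peak, 2 a lower one and 13 neither. Of the 12 whose RNA fell, 0 had a higher peak, 2 a lower one and 10 neither. The start peaks of replication genes had a median log2 change of 0.01 and those of mitosis genes of -0.27.

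**Figure D5:**
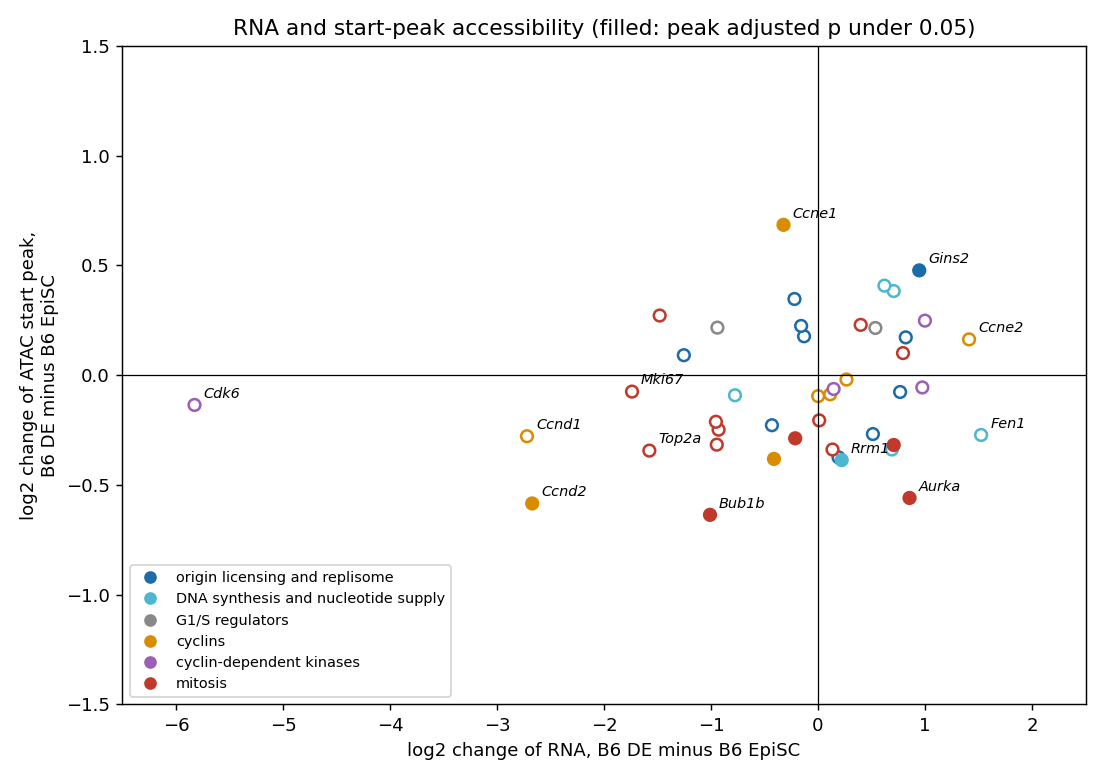
log2 change of RNA (horizontal) against log2 change of the strongest ATAC peak near the start or gene ends (vertical), B6 DE minus B6 EpiSC, for the 44 genes coloured by class; filled points have a peak adjusted p under 0.05. The points spread from -5.83 to 1.52 in RNA but only from -0.64 to 0.68 in ATAC, with Cdk6 far left near 0 on the vertical axis.

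In PWK against B6 EpiSCs, 0 of the 44 start peaks were called by edgeR, where 5.11% of all peaks (3.68% lower) and 3.18% of start peaks of any gene were. DESeq2 called 0 as well, and 3 had an unadjusted p under 0.05, those of Cdt1 (-0.73 ± 0.20, adjusted p = 0.0516), Birc5 (-1.10 ± 0.37) and Rb1 (-0.90 ± 0.30). The part of the B6 reference in these peak values was not tested. Of the 44 DBA peaks, 17 lay outside the B6 range (38.6%, against 46.3% of 138323 peaks with a B6 mean of at least 1 CPM), and 1 differed from the B6 mean by more than 1 on the log2 scale, against 24.7% of those peaks.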

How the data were processed

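Raw counts per Ensembl gene and per peak were deposited. Per the file headers, the columns of a peak table share their peaks. The authors' processing notes name Salmon, featureCounts, DESeq2, fastp, Bowtie2, MACS2 and mm10, the B6 reference, with no role, version or annotation, and whether strand was used in counting is not given in the sources used here. The members and lists were chosen with earlier results of these data known. All 44 genes may be named; of each further list, at most 2 genes called in each direction, and marker genes from their lists.

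Tests used edgeR 4.0.16 in R 4.3.3 (filterByExpr, TMM, robust quasi-likelihood fits, Benjamini-Hochberg over all features), tested on simulated data. The DE comparison used its own groups, and the strains 1 fit. All 44 genes and peaks passed the filter. Alternatives were other scalings, DESeq2 1.42.0, other filters, single libraries left out, a replicate block, a fold of at least 2, the nearest peak and only the groups compared. Within every group, libraries differed beyond sampling noise. The 3 PWK DE samples and 17 further columns were not used here.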

Additional observations from a re-analysis of the deposited data

Results flagged for a closer look

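In 11 of 176 groups of 4 or 5 libraries, 1 library lay apart by Dixon's criterion at 95%, where chance flags about 1 in 20 groups. In RNA, B6 EpiSC replicate 1 was high for Cdk1 (249.7 CPM, others 189 to 203), Top2a (1173 CPM, others 901 to 977) and Cenpf (337 CPM, others 61.4 to 128.6). B6 DE replicate 44 was high for Mcm3 (408 CPM, others 246 to 253), and without it Mcm3 was called lower in DE. B6 DE replicate 4 was low for Mcm5 (17.6 CPM, others 23.8 to 24.6).

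In ATAC, EpiSC replicate 51 was high at the Cdc6 start (48.0 CPM, others 30.9 to 33.7). DE replicate 51 was low at Mcm6 (17.6 CPM, others 21.1 to 21.6) and Mcm7 (65.1 CPM, others 74.1 to 75.6). DE replicate 2 was high at Cdc6 (47.8 CPM, others 37.7 to 38.9) and Plk1 (31.7 CPM, others 23.8 to 25.1). DE replicate 44 was low at Ccna2 (41.8 CPM, others 53.9 to 56.2), and without it that peak was no longer called.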

How the results depend on the processing

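In B6 DE against EpiSC RNA, 25 of 28 calls were made in each of 16 alternatives, all but Aurkb, Birc5 and E2f1, and no called gene changed sign in any comparison. With 1 library left out, 14 to 16 genes were called higher and 12 to 13 lower. A fold of at least 2, which is not among the 16 alternatives, left 2 higher and fewer lower. The median of the mitosis genes was -0.75 to -0.35 with 1 library left out, -0.65 with total-count scaling, -0.27 with at least 10 counts in every library (Gtse1 then left out), -0.46 in the libraries with shared numbers without the block, and -0.50 relative to genes of like span, chosen after seeing the data. That of the cyclins was -0.25 with total-count scaling and -0.47 relative to genes of like span.

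In PWK against B6, leaving out a library gave 1 to 4 genes higher and 8 to 15 lower. Total-count scaling gave 4 higher, no filter 1 and only the groups compared 1. In B6129F1 against B6, leaving out a library gave 0 to 6 higher and 0 to 1 lower, and DESeq2 1 higher and 1 lower. The medians there were -0.057 to 0.036 for cyclins and 0.057 to 0.19 for mitosis genes. In PWK against B6129F1, leaving out a library gave 1 to 2 higher and 11 to 14 lower, only the groups compared 5 higher, and total-count scaling 11 lower, with a mitosis median of -0.22.

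At start peaks in DE, leaving out a library gave 0 to 2 higher and 6 to 12 lower. Total-count scaling gave 0 higher and 16 lower, DESeq2 1 higher, and the paired libraries without the block 0 higher. In PWK, leaving out a library gave 0 to 1 lower. The causes of these differences were not tested.

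The replicate numbers were not shown to pair the samples: deviations of same-numbered libraries correlated by 0.15, 0.09, 0.21 and 0.20 in RNA and by 0.05, -0.01 and 0.03 in ATAC. Each DE RNA library correlated best with its own number among 2, 4, 44 and 51, a hint from the data only. With the replicate block, 14 genes were called higher and 13 lower in RNA, and 1 peak higher and 5 lower in ATAC. The block also called Mcm3 lower. Of 3694 gene and peak values compared over all alternatives, 187 changed sign, each called in neither fit. Depth was lowest in ATAC, with 3751526 counts in the shallowest library.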
